A study of Mus musculus with 6 samples.

Results

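Chromatin occupancy at 36 genes of neural cell adhesion was examined in peak lists of the forkhead factors Foxa1 and Foxa2 from mouse prostate tumor cells. The genes were given as a fixed list of cadherins, giant cadherins, teneurins, neurexins, neuroligins, contactins and immunoglobulin-type adhesion molecules, and they were 36 of 21883 protein-coding genes on the chromosomes 1 to 19, X and Y. A region, meaning a peak of the authors' list, was counted for each gene whose body contained the summit. Where no body did, it went to the gene whose end was closest, up to 100 kb away. The assignment rests on position, and no value here links a region to the expression of a gene.

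The study used chromatin immunoprecipitation and sequencing (ChIP-seq) on C57BL/6 mice, 3 prostates being dissected, after treatment with tamoxifen for 2 weeks or for 6 months. There were 6 libraries, 1 each of Foxa1, Foxa2 and input without antibody at each time. The sources used here do not give genotype, the allele that responds to tamoxifen, age, or whether libraries shared chromatin. The series' title places the work in prostate cancer progression. The comparisons concern Foxa1 at 6 months against 2 weeks, and Foxa2 against Foxa1 at 6 months. Each group had a single library, so differences between groups have no measure of replicate spread, no test was made, and every count below describes these libraries.

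Foxa1 and Foxa2 are pioneer factors: they bind forkhead motifs in closed chromatin, and Foxa1 is known in the prostate from luminal cells. Foxa2 is known from prostate budding and from neuroendocrine prostate tumors. Cell adhesion molecules of neurons join cells or synapses through extracellular repeats. Cadherins pair through cadherin repeats, neurexins on the axon side bind neuroligins and leucine-rich repeat proteins on the other side, teneurins bind latrophilins, and contactins act with contactin-associated proteins along axons. Many of these genes are very long, and long genes collect more regions.

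The full lists held 54226 regions for Foxa1 at 2 weeks, 35869 for Foxa1 at 6 months and 34942 for Foxa2 at 6 months. The Foxa2 list of 2 weeks held 1 region, which was assigned to 0 members and is not used further. Each long list was limited to its 34942 strongest regions by -log10 q, so that counts have the same total. The weakest region kept had a -log10 q of 4.52 in the 2-week list, 1.53 in the 6-month Foxa1 list and 1.31 in the Foxa2 list, so the lists of 6 months reach weaker regions. Read depth is unknown. Peak lists hold no expression, so cell types could be checked by occupancy alone. Of 5 neuroendocrine markers, among them the member Ncam1, 2 carried Foxa1 regions in the 2-week list and 4 in the 6-month list, and of 3 basal markers 2 and 1. Over all protein-coding genes 43% and 33.5% carried a Foxa1 region. The neuroendocrine marker Syp went the other way, with 1 region and 0 regions. Of 2 genes each, markers of seminal vesicle carried a region at 1 and 0 genes, and those of immune cells at 2 and 1. Those of endothelium carried one at 1 and 2 genes, and those of stroma at 2 and 2. Summed regions of these types, in the order named, were 1 and 0, 3 and 1, 1 and 7, and 10 and 4. The part of other cell types in the results was not tested.

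Foxa1 regions at the adhesion genes numbered 153 at 2 weeks and 426 at 6 months, and Foxa2 regions at 6 months numbered 470. These were 0.438%, 1.22% and 1.35% of the lists. Per megabase of territory, which is the length of genome whose summits would be counted for the gene, the members held 5.38, 15.0 and 16.5 regions. On lists of equal length, the Foxa1 count at 6 months was 2.78 times that at 2 weeks. Strong regions, those whose -log10 q was 5 or higher, numbered 32416 in the 2-week list and 15366 in the 6-month list, and 140 and 191 of them were at members (0.432% and 1.24%). In the full lists they held 225 and 436. With each list limited to its 15000 strongest regions, for which the weakest -log10 q was 11.7 and 5.10, they held 70 and 185.

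To allow for length, each member was set beside the 200 protein-coding genes outside the list that were nearest to it in territory. At 2 weeks, genes of like territory averaged a total of 252 Foxa1 regions for the 36 places, so the members' 153 were 0.607 times that number. At 6 months the like genes averaged 343 Foxa1 and 348 Foxa2 regions, and the members' counts were 1.24 and 1.35 times these. Few genes are as long as the longest members: for Cdh13, with a territory of 1295 kb, the like genes ran from 634 to 2513 kb. With the like genes' regions scaled to the member's territory, the ratios were 0.476, 0.963 and 1.05. By either scale the members were poor in Foxa1 regions at 2 weeks, whereas at 6 months they were above like genes by the plain count and near them by the scaled one. The median percentile of a member among its like genes was 34.1 at 2 weeks, 55.9 for Foxa1 at 6 months and 61.9 for Foxa2. Percentiles here and below rest on plain counts, not scaled ones.

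**Figure D1:**
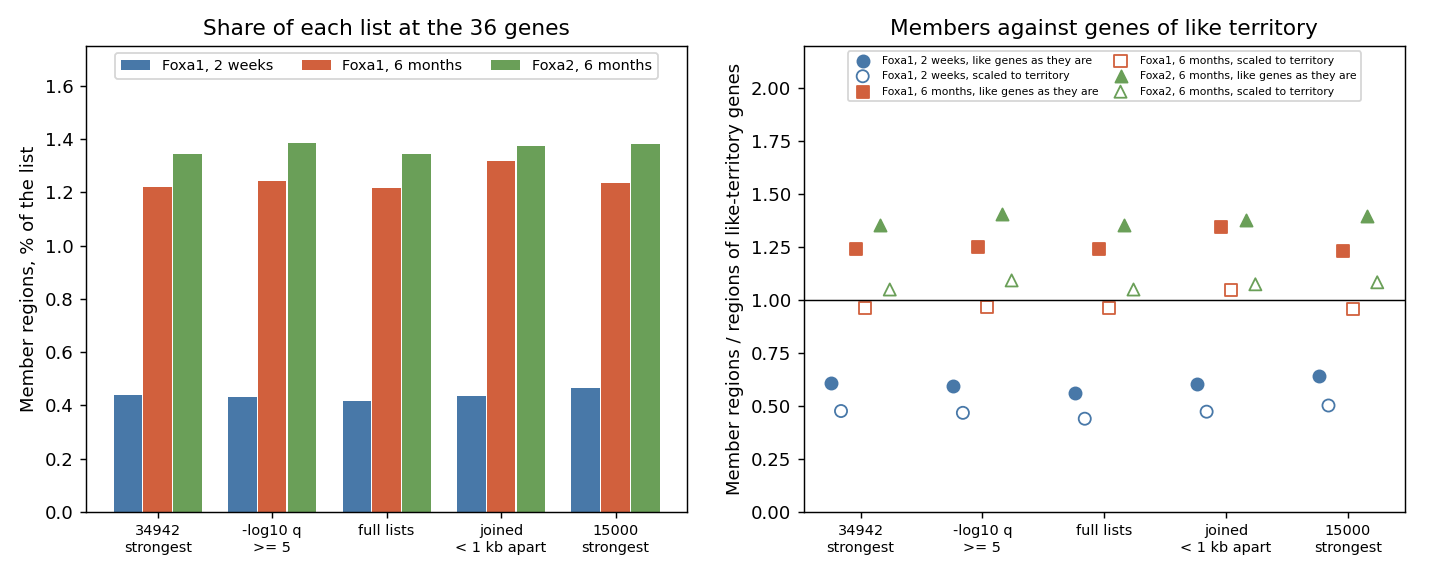
Left, regions at the 36 genes as a percentage of each list (bars) for 5 ways of choosing or counting regions; right, the members' regions divided by those of like-territory genes (filled points) and by those of like genes scaled to the member's territory (open points), with a line at 1. The 2-week Foxa1 share of 0.438% lay below the 6-month shares of 1.22% and 1.35% with the strongest 34942 regions, and the 2-week ratios lay below 1.

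A region was present at 29 of 36 members in the Foxa1 list of 2 weeks (80.6%), at 29 in that of 6 months (80.6%) and at 31 in the Foxa2 list (86.1%). Over all protein-coding genes the shares with a region were 43%, 33.5% and 35.4%, and over genes of like territory 82.5%, 82.6% and 83.9%. The presence of a region was about as frequent as at genes of this length. The median count per member was 3 for Foxa1 at 2 weeks, 8.5 for Foxa1 at 6 months and 7 for Foxa2, while the median over all genes was 0 in each list. Counting strong regions alone, of which the 6-month lists hold fewer, the medians were 2.5, 3 and 3.5. With each list limited to its 15000 strongest regions, the medians were 1, 3 and 3.5. Members without a Foxa1 region at 2 weeks were Cdh18, Celsr2, Celsr3, Lrrtm4, Cadm2, Cadm3 and Cntn6. Those without one at 6 months were Cdh8, Cdh10, Cdh18, Celsr2, Celsr3, Nrxn2 and Cntn1. In the full 2-week list, which reaches weaker regions, Cdh18, Celsr2 and Cntn6 had 1, 1 and 2 Foxa1 regions. Foxa1 regions were then present at 32 members at 2 weeks and at 29 at 6 months.

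A member was called higher or lower when it had at least 5 more or fewer regions and a ratio of at least 2, with 1 added to each count. By this rule 16 of 36 members (44.4%) had more Foxa1 regions at 6 months, against 2.89% of all genes and 25.5% of genes of like territory. The rule uses plain counts, which rise with territory, and the shares called at like genes were not scaled. Fewer regions were called at 2 members (5.56%), Tenm3 and Cntn1, against 2.66% and 8.99%. Without a threshold, 24 members had more, 7 fewer and 5 equal numbers, whereas over all genes 3830 had more and 5813 fewer. The median difference was 4.5 regions for the members and -1 for all genes that had a region at either time. Genes of like territory also had more at 6 months, by 2.52 regions on average. In strong regions the mean difference per like gene was -2.28. The median difference per member was 1, and the sum over the 36 members was 51 higher. Among strong regions, the rule called 6 members higher (16.7%, against 0.48% of all genes and 8.26% of like genes), namely Cdh13, Nrxn3, Tenm4, Cadm2, Sdk1 and Cntn4. It called Tenm3, Cntn1 and Cntn3 lower (8.33%, against 4.57% and 22%). After neighbours closer than 1 kb were merged, it called 12 members higher (33.3%, against 0.955% and 14.1%) and 2 lower (5.56%, against 2.64% and 12.4%).

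**Figure D2:**
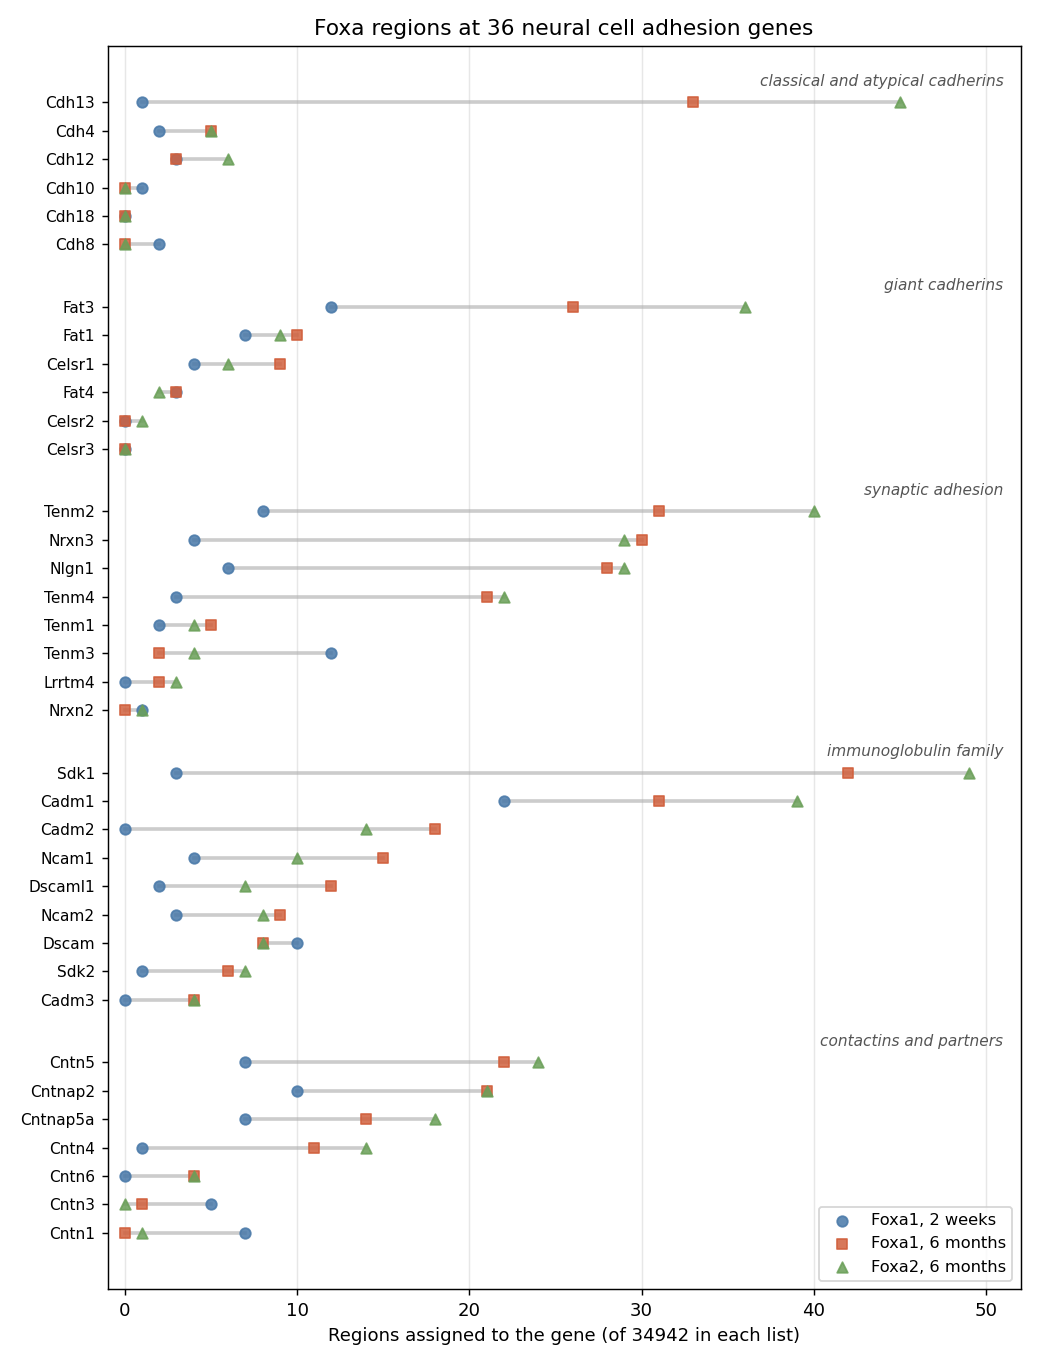
Number of regions assigned to each of the 36 genes (horizontal axis) in the list of Foxa1 at 2 weeks (circles), Foxa1 at 6 months (squares) and Foxa2 at 6 months (triangles), grouped by family, with a grey line from the lowest to the highest count. Sdk1, Cdh13, Tenm2, Nrxn3 and Nlgn1 held 28 or more Foxa1 regions at 6 months and 8 or fewer at 2 weeks, and Tenm3 and Cntn1 went the other way.

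Where 3 counts follow each other below, they are regions of Foxa1 at 2 weeks, of Foxa1 at 6 months and of Foxa2 at 6 months, in this order. Counts of like genes given for a family are plain ones, not scaled to territory. The immunoglobulin family of adhesion molecules held 45 Foxa1 regions at 2 weeks, 145 at 6 months and 146 Foxa2 regions over 9 genes, against 60.8, 80.7 and 80.8 at like genes. Sdk1, a sidekick protein that guides lamina-specific synapses in the retina, had the largest difference of all members. It lies on chromosome 5 (141241497 to 142215586, mm10) and held 3 Foxa1 regions at 2 weeks, 42 at 6 months and 49 Foxa2 regions. The percentile of Sdk1 among its like genes was 34.2 for Foxa1 at 2 weeks and 97 at 6 months. All 3 early regions overlapped a 6-month region, and 29 of the 42 later regions were absent from the 2-week list and overlapped a Foxa2 region. The regions were clustered, with 15 of 42 in 1 window of 100 kb, and merging neighbours closer than 1 kb left 2, 26 and 30. Among strong regions the counts were 3, 17 and 19.

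Cadm1, a nectin-like adhesion molecule of epithelia, neurons and mast cells, was the member richest in Foxa1 regions at 2 weeks. It held 22, 31 and 39 regions with percentiles of 96.5, 96.5 and 99.5. Its count was high in each list, and the difference between the times was below the threshold of the rule. Among strong regions, of which the 6-month list holds fewer, Cadm1 had 18 Foxa1 regions at 2 weeks and 11 at 6 months, the opposite order. With each list limited to its 15000 strongest regions it had 9 and 11. Its relatives Cadm2 and Cadm3, which are mainly neuronal, had 0 Foxa1 regions at 2 weeks. At 6 months Cadm2 had 18 Foxa1 and 14 Foxa2 regions over a territory of 1166 kb. Cadm3, with a territory of 36.2 kb, had 4 and 4, a percentile of 97.5 in both lists for this short gene.

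Ncam1, the neural cell adhesion molecule also known as CD56 and used in pathology as a neuroendocrine marker, lies on chromosome 9 (49502129 to 49799393). Ncam1 held 4 Foxa1 regions at 2 weeks, 15 at 6 months and 10 Foxa2 regions. Its 6-month Foxa1 regions were mostly weak, with a median -log10 q of 3.62, and among strong regions the Foxa1 counts were 4 and 3. Low medians were not particular to Ncam1: those of Nlgn1, Cadm2 and Tenm4 were 3.66, 3.49 and 3.38. Ncam2, its relative in olfactory axons, had 3, 9 and 8, and here 0 of the 3 early regions overlapped a 6-month region. Dscaml1 had 2, 12 and 7 and Sdk2 had 1, 6 and 7. Dscam, the Down syndrome cell adhesion molecule of dendrite self-avoidance, was the 1 gene of this family with fewer regions at 6 months (10, 8 and 8), a difference the rule did not call.

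Synaptic adhesion genes held 36 Foxa1 regions at 2 weeks, 119 at 6 months and 132 Foxa2 regions over 8 genes, against 64.6, 91.7 and 94.5 at like genes. This family had the largest territory among the families, 8660 kb, and its like counts were not scaled to it. For all members together, scaling lowered the Foxa1 ratio at 6 months from 1.24 to 0.963. Whether synaptic genes exceed genes of their length at 6 months was therefore not tested. Nrxn3, a presynaptic neurexin, lies on chromosome 12 (88722701 to 90334935) and had 4, 30 and 29 regions. Nlgn1, the neuroligin of excitatory synapses and a receptor for neurexins, had 6, 28 and 29. Among strong regions the counts were 4, 14 and 12 at Nrxn3 and 6, 9 and 12 at Nlgn1. The percentiles of Nrxn3 and Nlgn1 were 40.5 and 54 at 2 weeks and 91.8 and 89.5 for Foxa1 at 6 months. Nrxn2, a shorter relative, had 1, 0 and 1 regions, and Lrrtm4, a postsynaptic leucine-rich repeat protein, had 0, 2 and 3.

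The teneurins, large transmembrane proteins that pair across synapses, differed in direction. Tenm2 had 8 Foxa1 regions at 2 weeks, 31 at 6 months and 40 Foxa2 regions. Tenm4 had 3, 21 and 22, and Tenm1, on chromosome X, had 2, 5 and 4. Tenm3, on chromosome 8 (48225665 to 49522824), had 12, 2 and 4, the largest deficit among the 36 genes. Among strong regions Tenm3 had 11, 2 and 1 regions, and 10, 2 and 4 after neighbours closer than 1 kb were merged. The percentile of Tenm3 among like genes was 71.2 at 2 weeks and 12 at 6 months. Its early regions were strong, with a median -log10 q of 14.5, and 1 of the 12 overlapped a Foxa1 region of 6 months.

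Among classical and atypical cadherins the counts were 9, 41 and 56 over 6 genes, against 48.1, 65.9 and 66.6 at like genes, and Cdh13 held most of those of 6 months. Cdh13, or T-cadherin, is held to the membrane by a lipid anchor and lacks the cytoplasmic tail of other cadherins. The gene lies on chromosome 8 (118140017 to 119324929) and held 1 Foxa1 region at 2 weeks, 33 at 6 months and 45 Foxa2 regions. The 1 early region overlapped a 6-month region of each factor. Of the 33 later Foxa1 regions 23 were new and shared with Foxa2, and 16 of the 33 fell in 1 window of 100 kb. Cdh4, or R-cadherin, had 2, 5 and 5. The type II cadherins of neurons were below the median of their like genes in every list: Cdh8 had 2, 0 and 0, Cdh10 had 1, 0 and 0, Cdh12 had 3, 3 and 6, and Cdh18 had 0, 0 and 0 over a territory of 1129 kb. None of Cdh8, Cdh10 and Cdh18 had a region at 6 months in the full lists.

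The giant cadherins of planar polarity and tissue growth held 26, 48 and 54 regions over 6 genes, above the 21.3, 25 and 24.5 of like genes in each list. Their strong regions numbered 24, 21 and 22, from 6-month lists that hold fewer strong regions than the 2-week list. With each list limited to its 15000 strongest regions, Foxa1 counts at 2 weeks and 6 months were 6 and 12 at Fat3. They were 2 and 4 at Celsr1, 1 and 2 at Fat4, and 5 and 3 at Fat1, in the other direction. Fat3, which shapes neurites of retinal amacrine cells, had 12, 26 and 36. Among strong regions Fat3 had 12 Foxa1 regions at each time and 15 Foxa2 regions. Fat1, which is also active in epithelia, had 7, 10 and 9 and was in the upper part of its like genes throughout (percentiles of 82.2, 91.2 and 88.8). For Fat1 the counts among strong regions were 7, 3 and 3. Celsr1, the planar polarity cadherin of epithelia, had 4, 9 and 6 regions, while Celsr2 had 0, 0 and 1 and Celsr3 had 0, 0 and 0. Fat4 had 3, 3 and 2.

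Contactins and their partners held 37, 73 and 82 regions over 7 genes, against 57.3, 79.7 and 81.2 at like genes, and differed among themselves. Cntn5, an axonal contactin of auditory and visual circuits, had 7, 22 and 24, and Cntn4, which acts in olfactory and optic wiring, had 1, 11 and 14. Cntn1, the contactin of axon and myelin junctions, had 7 Foxa1 regions at 2 weeks, 0 at 6 months and 1 Foxa2 region. Cntn3 had 5, 1 and 0, and Cntn6 had 0, 4 and 4. None of the 7 early regions of Cntn1 and none of the 5 of Cntn3 overlapped a region of either factor at 6 months. Cntnap2, the contactin-associated protein that gathers potassium channels beside the node of Ranvier and the longest gene of the list (2241 kb), had 10, 21 and 21. Cntnap5a had 7, 14 and 18.

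**Figure D3:**
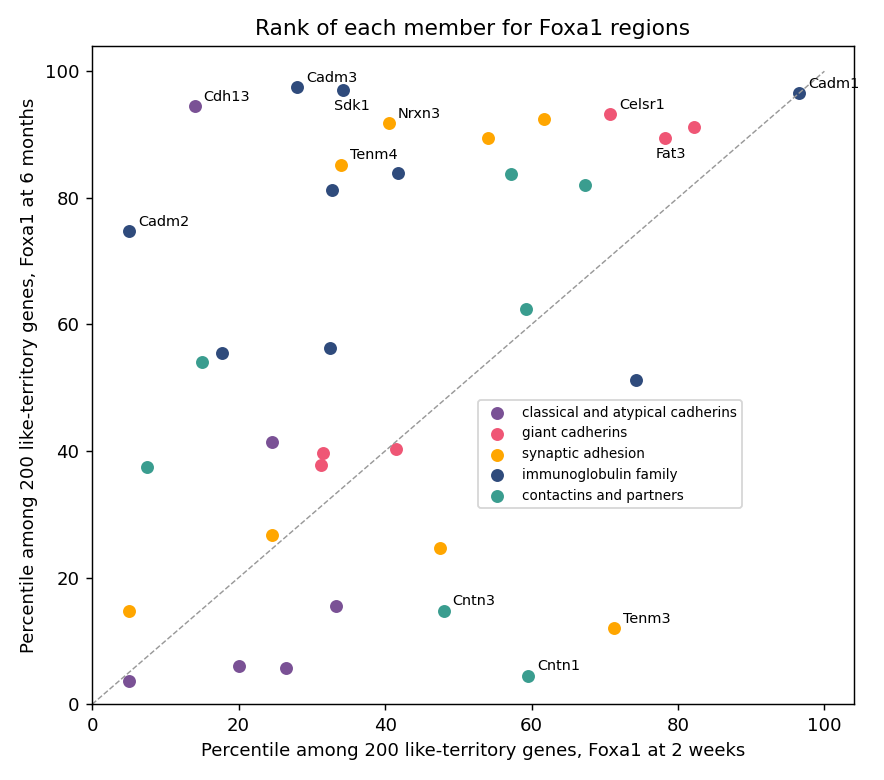
Percentile of each of the 36 genes among its 200 like-territory genes for the number of Foxa1 regions at 2 weeks (horizontal axis) and 6 months (vertical axis), coloured by family, with a dashed line of equal rank. Cdh13, Cadm3, Sdk1 and Cadm2 lie far above the line and Tenm3, Cntn1 and Cntn3 below it, while Cadm1 has a percentile of 96.5 at both times.

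Few of the later sites had been listed earlier. Of the 426 Foxa1 regions of 6 months at the members, 70 overlapped a Foxa1 region of 2 weeks by at least 1 bp (16.4%, exact Clopper-Pearson 95% interval 13.0 to 20.3%, counting error only). The share was 27.5% at like-territory genes, with 200 for each member and a gene counted as often as it served, and 37.2% over all 29889 regions assigned to genes. For Foxa2, 76 of 470 member regions (16.2%, 13.0 to 19.8%) lay on a 2-week Foxa1 region, against 28.0% and 38.5%. Under the stricter overlap of 50% the members' shares were 6.34% and 6.17%, and like genes were not compared under it. Regions of 1 gene are not independent, and a gene with few 2-week regions offers few to overlap, and the bearing of this on the shares was not tested. In the other direction the order was the opposite: 57 of the 153 member regions of 2 weeks were listed again at 6 months (37.3%, 29.6 to 45.4%), against 27.0% at like genes and 27.1% over all.

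The overlap of the factors at 6 months depended on how it was counted. Of the 470 Foxa2 regions 330 overlapped a Foxa1 region of 6 months by at least 1 bp (70.2%, 65.9 to 74.3%), close to the 68.8% of like genes and the 69.3% of all regions. The share was 44.3% when each region had to cover 50% of the other, and 52.3% when summits had to lie within 200 bp. By the 1 bp rule, Foxa1 was listed at the Foxa2 regions at both times for 68 (14.5%), at 6 months alone for 262 (55.7%), at 2 weeks alone for 8 (1.7%) and at neither time for 132 (28.1%). Over all assigned Foxa2 regions these shares were 30.6%, 38.7%, 7.92% and 22.8%. At like genes, which were closer to the members, they were 22.5%, 46.3%, 5.44% and 25.8%. By the call rule, Foxa2 counts differed from Foxa1 counts at 0 of 36 members in either direction, and in the background 0.133% of all genes were called higher and 0.151% lower for Foxa2 (1.07% and 0.167% of like genes). Foxa2 had more regions at 17 members, fewer at 10 and equal numbers at 9. The widest gaps were 12 more at Cdh13, 10 at Fat3, 9 at Tenm2, 8 at Cadm1 and 7 at Sdk1, and 5 fewer at Ncam1 and at Dscaml1. Among strong regions, Cdh13 had 17 regions of each factor.

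**Figure D4:**
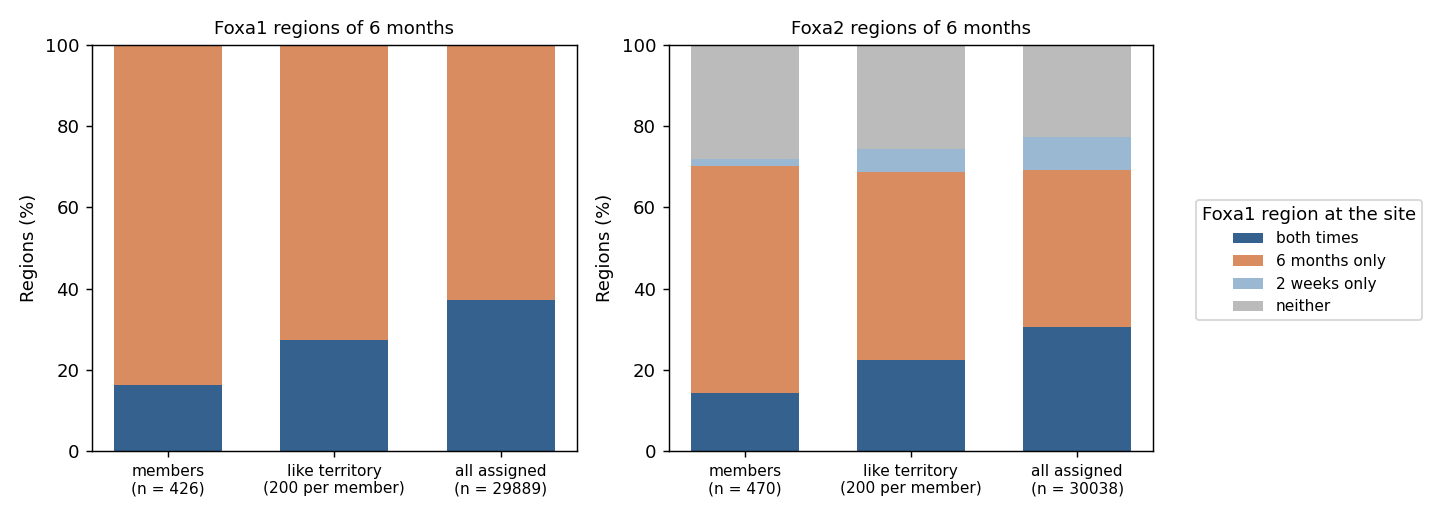
Share of 6-month Foxa1 regions (left) and Foxa2 regions (right) by whether a Foxa1 region was listed at the same site at both times, at 6 months only, at 2 weeks only or at neither time, for the 36 members, for genes of like territory (200 per member, each counted as often as it served) and for all regions assigned to genes. At the members 16.4% of Foxa1 and 14.5% of Foxa2 regions lay on sites of both times, against 27.5% and 22.5% at like genes and 37.2% and 30.6% over all.

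Regions at the members were of ordinary strength. Their median fold enrichment, the authors' own ratio for each peak, used here only to rank and describe, was 5.13, 3.48 and 3.75 in the lists of 2-week Foxa1, 6-month Foxa1 and Foxa2, against 4.99, 3.43 and 3.73 over all assigned regions. Their median rank percentile within the list, by the authors' -log10 q, was 50.2, 51.9 and 51.4. The strongest 6-month regions lay at Celsr1, 11.5 kb beyond the gene (chr15:86044671-86046816, Foxa1 fold 14.6, -log10 q 79.3, and chr15:86045124-86046645, Foxa2 fold 16.2, -log10 q 71.9). They were followed by regions within Cntnap5a (chr1:115698204-115701712, Foxa1 fold 14.7) and Nlgn1 (chr3:25804707-25808100, Foxa1 fold 13.2). Each of these 3 sites was listed for Foxa1 at both times and for Foxa2, so the strongest 6-month sites were also listed at 2 weeks. The strongest 2-week region lay 84.7 kb from Fat3 (chr9:16586460-16587974, fold 16.7, -log10 q 75.5) and was listed at 6 months too.

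The strongest 2-week regions with no 6-month counterpart lay 24.9 kb from Cntn3 (chr6:102588617-102590022, fold 14.7, -log10 q 61.8), within Tenm3 (chr8:48687085-48690437, fold 13.6, -log10 q 54.6) and 82.3 kb from Cdh8 (chr8:99499305-99502599, fold 11.8). Those of 6-month Foxa1 absent at 2 weeks lay within Cntn4 (chr6:105684185-105688406, fold 11.1, -log10 q 44.4), Nrxn3 (chr12:89857084-89859575, fold 10.7) and Nlgn1 (chr3:25743879-25745894, fold 9.52), and each was shared with Foxa2. The 3 strongest Foxa2 regions without a Foxa1 region at either time were all in Tenm2, with fold enrichments of 5, 5 and 4.8 and -log10 q values of 8.32, 8.32 and 7.58. Tenm2 held 14 such regions and Cdh13 held 18.

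Regions lay mostly inside the genes, about as often as at genes of like territory. Of the 2-week Foxa1 regions 83% were inside the gene body, and of the 6-month Foxa1 and Foxa2 regions 88.3% and 86.8%, against 84.3%, 87.7% and 88.1% at like genes. The median distance to the nearer gene end was 100.1, 133.7 and 139.0 kb, against 101.0, 114.2 and 119.7 kb at like genes. Within 5 kb of a gene end there were 4, 8 and 12 regions in the 3 lists, against an average of 10.2, 13.1 and 13.8 at like genes. Over the 28 members with a start site in the RefSeq table, 35.1% of 279 intragenic Foxa1 regions of 6 months lay in the 5′-most of 3 equal parts of the gene, 32.6% in the middle and 32.3% in the last, an even spread. At 2 weeks these shares were 26.9%, 32.3% and 40.9% of 93 regions. Exons and introns were not distinguished.

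**Figure D5:**
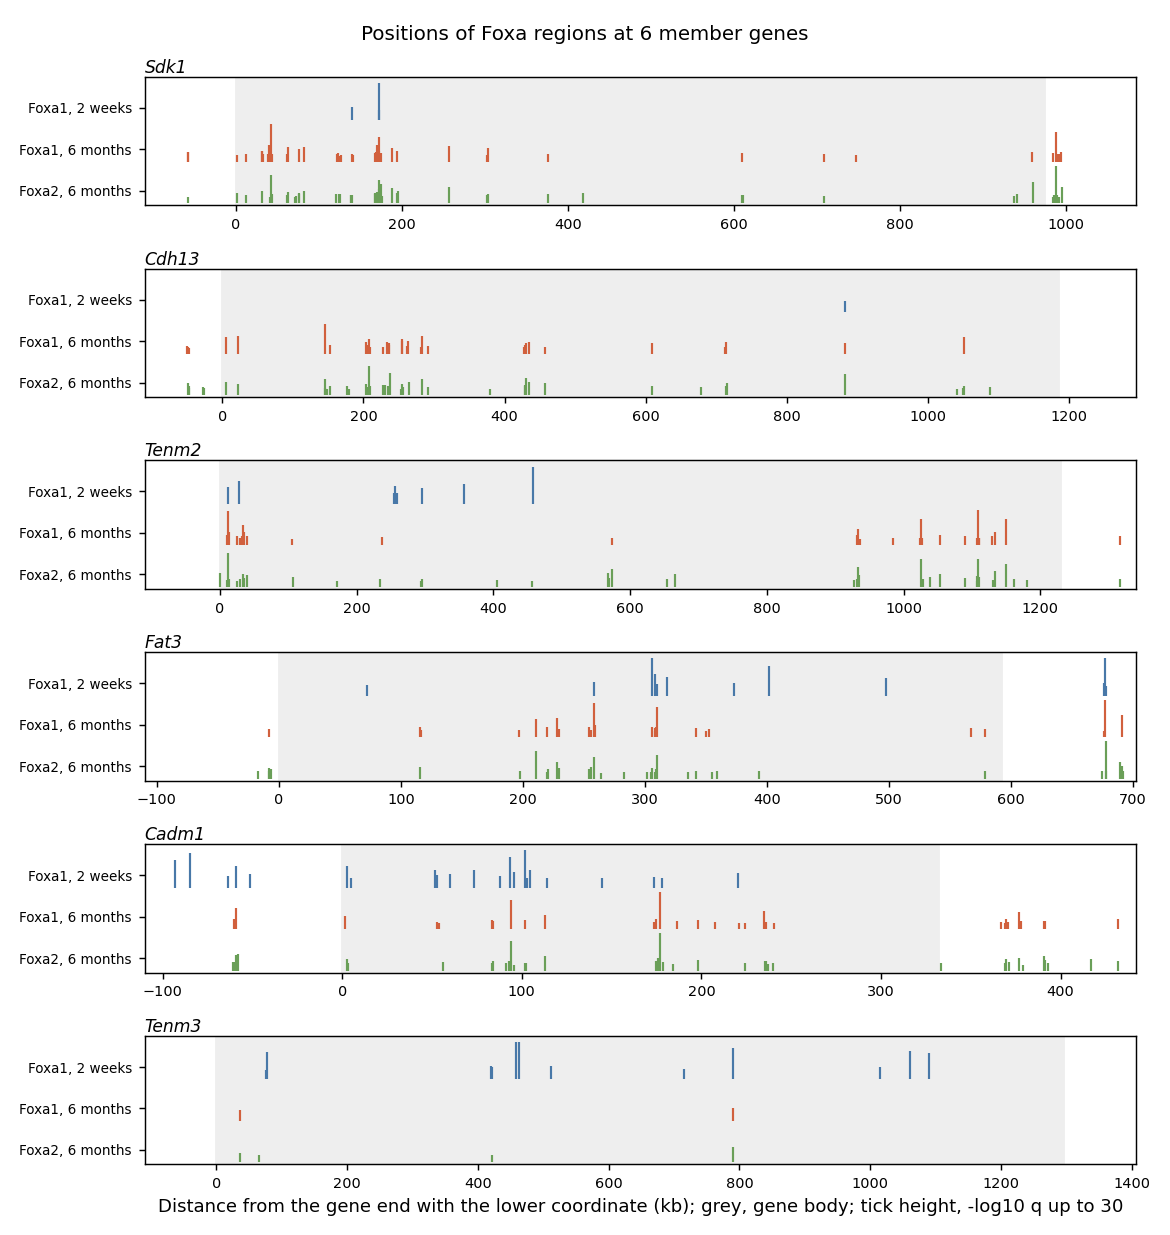
Summits of the regions assigned to Sdk1, Cdh13, Tenm2, Fat3, Cadm1 and Tenm3, in kb from the gene end with the lower coordinate, for Foxa1 at 2 weeks (blue), Foxa1 at 6 months (orange) and Foxa2 at 6 months (green), with the gene body in grey and tick height showing -log10 q up to 30. Sdk1 and Cdh13 have 3 and 1 Foxa1 regions at 2 weeks and 42 and 33 at 6 months, Cadm1 has many in each list, and Tenm3 has 12 and 2.

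Start sites were nearly free of regions. RefSeq windows of 300 bases (build GRCm38.p6, the coordinates of mm10), from 250 bases before to 50 after a start site, were matched for 28 of the 36 genes, with 38 windows. The unmatched members were Cdh4, Cdh13, Celsr1, Nrxn2, Cadm1, Ncam1, Dscaml1 and Cntnap5a. Of the 38 windows, 0 were overlapped by a Foxa1 region at 2 weeks, 1 by a Foxa1 region at 6 months and 0 by a Foxa2 region. Over all 32851 windows of the table, which does not cover every gene, 3.97%, 2.54% and 2.36% were overlapped, a level at which 38 windows would hold few. The 1 window was a downstream start of Cntnap2 (chr6:47244146-47244445, plus strand). Its region (chr6:47244087-47244283) was weak, with a fold enrichment of 2.99 and a -log10 q of 2.35, and its summit lay 261 bp from the start site. The window is shown since it is the 1 member start with a region, with the 138 bases inside the region in capitals.
Cntnap2: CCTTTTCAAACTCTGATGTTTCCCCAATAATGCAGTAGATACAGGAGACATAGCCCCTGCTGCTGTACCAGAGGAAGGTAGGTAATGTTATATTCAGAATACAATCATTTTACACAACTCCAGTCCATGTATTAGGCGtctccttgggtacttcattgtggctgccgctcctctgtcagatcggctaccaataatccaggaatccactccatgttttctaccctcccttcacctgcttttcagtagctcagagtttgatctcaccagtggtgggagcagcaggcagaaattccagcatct

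The member with the largest difference, Sdk1, shows the other kind of start. Its window (chr5:141241284-141241583, plus strand) is dense in CG pairs, 54 against 3 in the Cntnap2 window, and the nearest summits were 1.39 kb away for Foxa1 and 1.51 kb for Foxa2 at 6 months and 127 kb away for Foxa1 at 2 weeks. This window was chosen after its values were seen, and the CG pairs are in capitals.
Sdk1: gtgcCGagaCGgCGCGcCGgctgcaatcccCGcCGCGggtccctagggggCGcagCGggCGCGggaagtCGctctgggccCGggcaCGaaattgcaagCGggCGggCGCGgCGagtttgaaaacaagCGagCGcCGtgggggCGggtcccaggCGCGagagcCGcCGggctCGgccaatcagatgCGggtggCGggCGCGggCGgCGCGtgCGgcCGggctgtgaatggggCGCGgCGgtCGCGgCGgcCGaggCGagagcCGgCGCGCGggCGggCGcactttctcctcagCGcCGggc

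The forkhead letters TGTTTAC and TGTTTGC were searched on both strands of the windows. The words differ in 1 letter, so a position holds at most 1 of them. At least 1 of them was found in 2 of 38 member windows (5.26%) and in 8.48% of all windows of the same length. The 2 windows were at Tenm2 (chr11:36944192-36944491, minus strand) and at a start of Cntn4 (chr6:106118515-106118814, plus strand), both genes with more Foxa1 regions at 6 months. Neither window was overlapped by a region: the nearest 6-month Foxa1 summit was 1.94 kb from the Tenm2 start and 133 kb from that of Cntn4. The windows, chosen after their values were seen, are shown 5′ to 3′ on the strand of the gene to display the match, in capitals, which at Tenm2 ends a run of repeated TTTG letters and at Cntn4 reads TGTTTGC on the opposite strand. A match describes letters and is not evidence of binding.
Tenm2: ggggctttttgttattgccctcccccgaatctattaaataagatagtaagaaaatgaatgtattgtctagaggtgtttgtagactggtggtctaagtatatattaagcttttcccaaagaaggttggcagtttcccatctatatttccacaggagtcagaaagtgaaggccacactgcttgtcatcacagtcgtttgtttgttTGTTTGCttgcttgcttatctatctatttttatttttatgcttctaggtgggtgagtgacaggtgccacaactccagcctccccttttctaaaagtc
Cntn4: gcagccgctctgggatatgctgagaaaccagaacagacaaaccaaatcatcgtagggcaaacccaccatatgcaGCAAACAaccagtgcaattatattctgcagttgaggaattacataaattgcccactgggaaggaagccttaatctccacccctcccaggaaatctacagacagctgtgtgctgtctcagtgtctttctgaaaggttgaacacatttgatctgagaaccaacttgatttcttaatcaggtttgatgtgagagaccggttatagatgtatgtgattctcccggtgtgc

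Other adhesion genes, a list of 82 relatives and synaptic partners that does not overlap the 36, held 208 Foxa1 regions at 2 weeks, 364 at 6 months and 362 Foxa2 regions, against 357, 446 and 450 at genes of like territory. They held fewer than like genes in each of the lists, by the plain count. The call rule gave 14 of 82 with more Foxa1 regions at 6 months and 1 with fewer, or 17.1% and 1.22%, where 13.8% and 6.93% of genes of territory like theirs and 2.89% and 2.66% of all genes were called. Among strong regions the counts were 193, 156 and 145. Single relatives went in either direction. Cdh20, a type II cadherin, had 0 and 21 Foxa1 regions, and Pcdh15, a protocadherin of hair cell tip links, had 0 and 18. Alcam, an immunoglobulin-type adhesion molecule also present in epithelia, had 18 and 10, Adgrl2, a latrophilin that binds teneurins, had 15 and 9, and Adgrl3 had 13 and 7. Ntm, a lipid-anchored adhesion molecule of neurons, had 21 and 19, and Negr1 of the same group had 10 and 22.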

How the data were processed

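Foxa1, Foxa2 and input libraries of mouse prostate tumor cells were sequenced after ChIP. Per the submitters' processing notes, the tools were MACS2 2.1.1, Bowtie2, Trim Galore 0.5.0, HOMER, deepTools 3.2.1, bedtools 2.25.0 and DiffBind 2.12.0, and the build was mm10. The sources used here do not give their roles or whether input served as control. The deposited lists have the MACS2 layout with 1 library each. Each peak carries the authors' fold enrichment (a ratio), the authors' -log10 of the p-value and q-value, and the authors' score, which is 10 times that -log10 q without its decimals. The deposited lists stop at a q-value of 0.05. A deeper or cleaner library yields more peaks, and the lists give no depth. Input libraries were not analysed here.

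Peaks on unplaced contigs were left out: 12 and 2 in the Foxa1 lists of 2 weeks and 6 months, 0 and 3 in those of Foxa2. Counts used the 34942 strongest regions per list, overlaps sought partners in the full lists, and genes came from RefSeq (GRCm38.p6). Like genes were the 200 nearest in territory on a log scale, and a percentile is the share of like genes with fewer regions, with ties given the middle rank. Alternatives were a -log10 q of at least 5, full lists, joining within 1 kb, gene bodies only, 5 kb around gene ends, a reciprocal overlap of 50%, summits within 200 bp and 100 or 400 like genes. Scaling to territory, the 15000 strongest regions and leaving out 3 members were added after the data were examined. All 36 members could be named, with the strongest regions per list and class, and of the other adhesion genes those with the most regions or the largest differences. Some results on marker and other adhesion genes are not reported here. The members and lists were chosen with earlier results of these data known. Python 3.11.15, numpy 2.4.6, pandas 2.3.3, scipy 1.17.1 and matplotlib 3.10.9 were used. Overlaps were checked against bedtools 2.31.1, which gave the same 24372 Foxa2 regions on Foxa1 regions of 6 months. The scripts were tested on simulated data drawn from the 2-week Foxa1 list, where 2000 of 2000 assignments equalled a direct search and 16223 of 16223 planted overlaps were found.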

Additional observations from a re-analysis of the deposited data

How the results depend on the processing

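Of 103 alternative values over 19 results, 69 stayed within the spread set for them, 31 moved and 3 reversed. The full Foxa2 list is the list already used, so its full-list values, counted among the 69, could not differ. With regions limited to 5 kb around gene ends, which leaves few regions, the counts were 4, 8 and 12 for Foxa1 at 2 weeks, Foxa1 at 6 months and Foxa2, at 4, 6 and 10 members. The differences were then 4 and 4, and the members called higher and lower 0 and 0. The ratios to comparison genes were 0.244, 0.601 and 0.866, the latter pair reversed. The median percentiles were 40.25 for Foxa1 and 39.25 for Foxa2 at 6 months. Long genes all tie in territory in this setting, so these ratios and percentiles are not against genes matched in length. The like genes of the main setting averaged 10.2, 13.1 and 13.8 regions within 5 kb of gene ends. Scaling to territory, added after the data were examined, also reversed the Foxa1 ratio at 6 months (0.963). Among strong regions the 6-month counts were 191 for Foxa1 and 209 for Foxa2, the differences 51 between times and 18 between factors, and 6 members were called higher. The overlap was then 20.9% of 6-month Foxa1 regions on 2-week regions and 75.1% of Foxa2 on 6-month Foxa1 regions. The difference between times was 159 with close regions joined, 115 with the 15000 strongest regions and 176 without the 3 members of largest difference (the last pair added after the data were examined). Joining gave a median percentile of 65.5 for Foxa1 at 6 months, and full lists gave 39.25 at 2 weeks. A reciprocal overlap of 50% lowered the shares to 6.34% (Foxa1 at 6 months on 2 weeks), 44.3% (Foxa2 on Foxa1 at 6 months) and 6.17% (Foxa2 on 2-week Foxa1), and summits within 200 bp gave 11.7%, 52.3% and 12.6%. The cause of these shifts was not tested. No paired analysis was possible because each group has 1 library, and for the same reason no library could be left out. Depth is unknown, so a missing region may reflect depth or occupancy, which cannot be told apart.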
